A study of Rattus norvegicus with 48 samples.

Results

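Axon guidance ligands and receptors were followed in ribosome-bound RNA from D1 and A2a medium spiny neurons of the rat nucleus accumbens. Genes were taken by name if they encode a semaphorin of classes 3 to 7, a plexin, a neuropilin, an ephrin, an Eph receptor, a Slit, a Robo, a netrin, a netrin-G, an Unc5 receptor or Dcc. A mean of at least 1 CPM (counts per 1 M counts of the library) over the 48 libraries was also required. Of 69 genes with such a name, 61 met this level, out of 32883 gene identifiers in all, and all 61 were among the 15580 genes tested. Just inside the level lay Sema3d with 1.12 CPM and Ntn3 with 2.39 CPM, and just outside it lay Unc5d with 0.846 CPM, Efna5 with 0.815 CPM and Sema3a with 0.612 CPM. The other 5 genes left out were Epha1, Epha2, Efna4, Ntn5 and Robo3.

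The libraries came from nucleus accumbens core punches of adult rats of both sexes, and each held the RNA pulled down with antibodies to green fluorescent protein (translating ribosome affinity purification, TRAP) from the brain of 1 animal. The D1:Cre line gave the D1 libraries and the A2a:Cre line gave the A2a libraries, the A2a neurons being those that also carry the dopamine D2 receptor. In each line, 8 rats had self-administered saline and were killed on withdrawal day 1, 8 had self-administered cocaine and were killed on day 1, and 8 had self-administered cocaine and were killed on day 40, in each case after 10 sessions. No saline group at day 40 was used here, so cocaine at day 40 can be set only against day 1 groups. The transgene that carries the tag is not named in the labels, and the sex of each animal is not given in the sources used here. Library totals ran from 5.3 to 55.1 M counts, the second lowest being 24.5 M, and the least abundant member was expected to have 6 counts in the shallowest library. Of the 48 libraries, 2 stood apart, A2a cocaine day 1 replicate 7 by its depth of 5.3 M counts and D1 cocaine day 40 replicate 7 by the lowest sum of markers shared by medium spiny neurons (3083 CPM).

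Guidance molecules were first described as cues that attract or repel growing axons, and many stay expressed in the adult brain, where they act on dendritic spines and synapses. Semaphorins signal through plexins, with neuropilins as co-receptors for most of the secreted class 3 members. Slits signal through Robo receptors, netrins through Dcc and Unc5 receptors, and ephrins through Eph receptor tyrosine kinases, which bind membrane-bound ephrins of the A or B class on neighbouring cells.

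The marker genes fitted the labelled neuron types. Each of the 6 tested D1 markers passed the edgeR test as higher in D1, and their sum was 1150 to 2276 CPM in D1 libraries, against 235.3 to 402.7 CPM in A2a libraries. The 8 A2a markers all passed as lower in D1, their sums being 935.8 to 2225 CPM in D1 libraries and 8240 to 14240 CPM in A2a libraries. Interneuron markers also moved with the neuron type. Of 10 tested, 7 were higher and 1 was lower in D1 libraries, and their sum ran from 724.5 to 1575 CPM in D1 libraries, against 182.1 to 407.3 CPM in A2a libraries. Somatostatin (Sst) made up most of it, with a median of 981.8 CPM in D1 libraries and 204.9 CPM in A2a libraries. Npy, the other of the 11 interneuron markers in the table, was at 0 in every library of both types. Whether the counting could assign reads to Npy is not known here, so this is not read as absence of its RNA. Of the markers shared by both medium spiny types, 6 of 7 were lower in D1 libraries, with sums of 3083 to 6927 CPM in D1 libraries and 5703 to 8300 CPM in A2a libraries. Among other cells, 4 of 10 microglial and 1 of 9 endothelial or mural markers were lower and 3 of 10 astrocyte markers higher in D1 libraries. Of 3 tested markers of excitatory projection neurons, 1 passed, Slc17a6, higher in D1 by 1.87 on the log2 scale (edgeR adjusted p = 0.000149). Its median was 1.79 CPM in D1 libraries and 0.439 CPM in A2a libraries. No marker of oligodendrocytes or their precursors passed. The part of these other cells in the differences below was not tested. In such bulk RNA, fewer cells of a type and less RNA per cell cannot be told apart.

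Guidance genes that differed between the neuron types were found in most families. Averaged over the 3 treatment groups, 29 of the 61 members (47.5%) differed between D1 and A2a libraries in edgeR's quasi-likelihood test at an adjusted p under 0.05, beside 31.6% of all genes tested and 35.6% of genes with a mean of at least 1 CPM. Of these, 17 were higher in D1 (15.2% of all genes were) and 12 were lower (16.5% of all genes were). The median size of the difference, either way, was 0.20 on the log2 scale for the members and 0.12 for all genes tested, each D1 minus A2a as are all differences between the types below. Among the ligands, 12 of 32 were higher, 4 were lower and 16 did not pass. Among the receptors, 5 of 29 were higher, 8 were lower and 16 did not pass. Since 31.6% of all genes passed, a single call in a family of few genes is near that share. No family was tested against it.

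**Figure D1:**
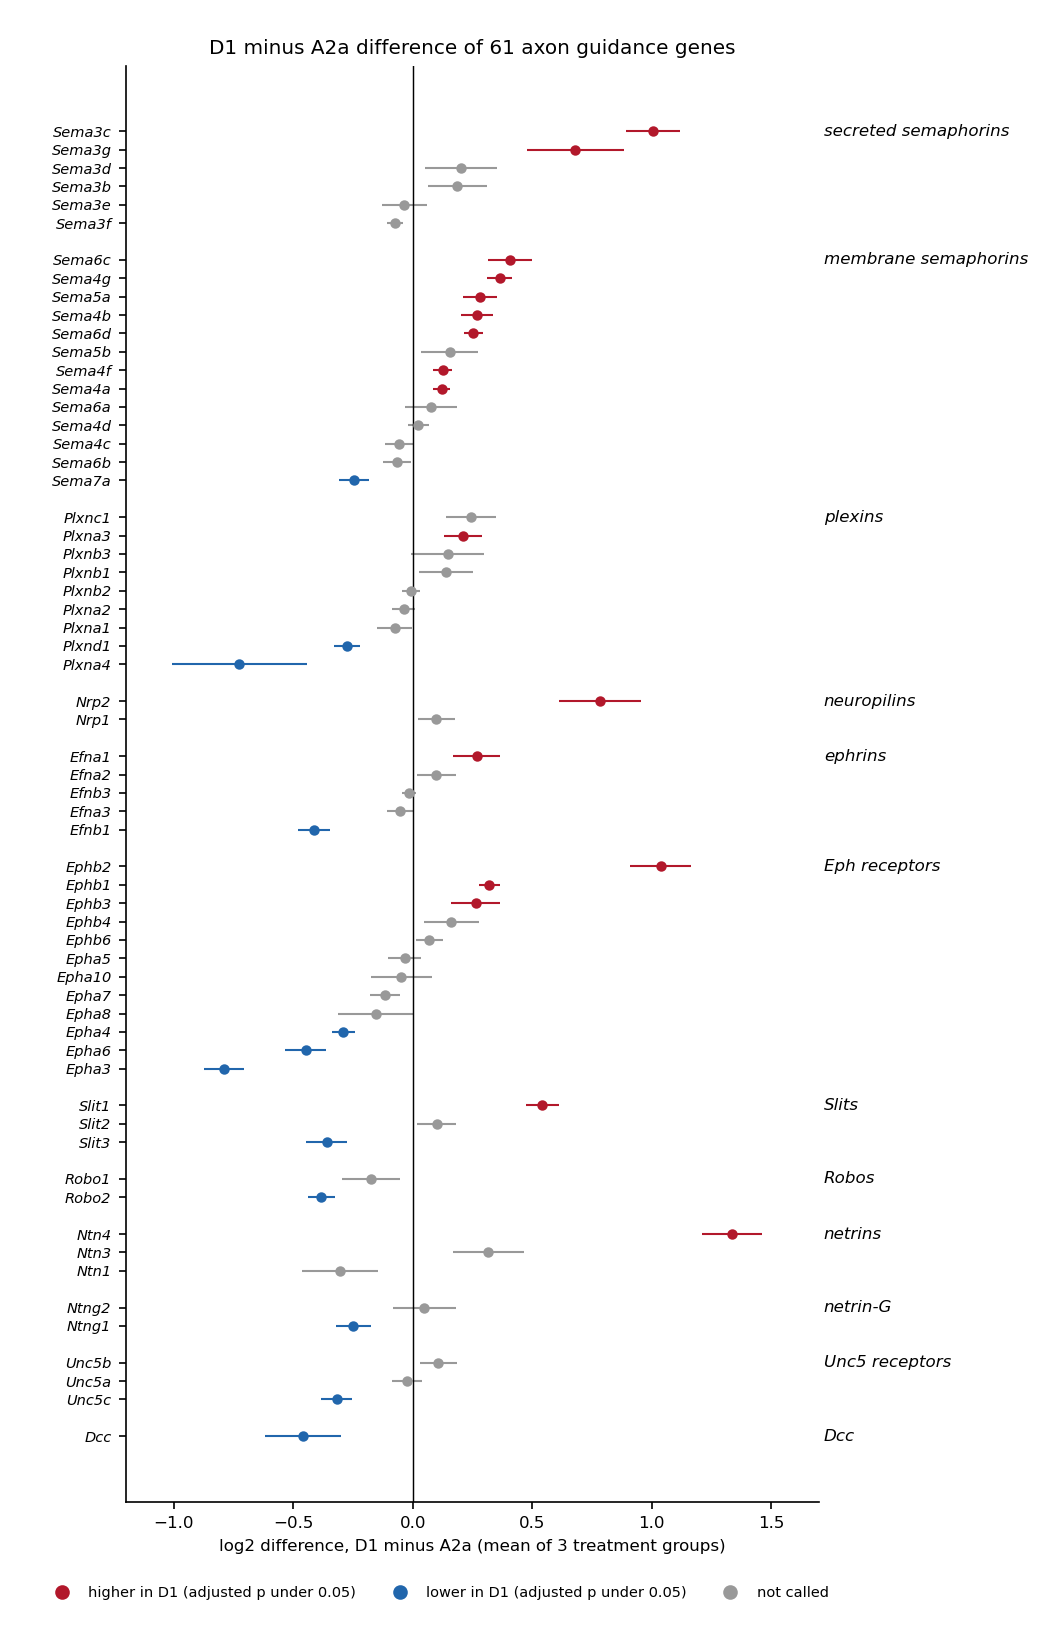
Difference between D1 and A2a libraries for the 61 guidance genes, in log2 units with standard errors (D1 minus A2a, averaged over the 3 treatment groups, 24 libraries each). Genes are grouped by family, red and blue points passed the edgeR test as higher and lower in D1, and grey points did not pass. The values run from Ntn4 at 1.34 to Epha3 at -0.79, and the EphB receptors that passed lie on the opposite side of 0 from the EphA receptors that passed.

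The promoters of the gene highest in D1 and of the gene lowest in D1 are shown because these 2 genes mark the ends of the range. Both are RefSeq sequences of the GRCr8 build, from 250 bases before to 50 bases after the annotated start. The Ntn4 window is chr7:30073387-30073686 on the plus strand and the Epha3 window is chr11:14920376-14920675 on the minus strand. Each is written 5′ to 3′ on the gene's strand, with capitals where a motif searched on both strands was found.
Ntn4: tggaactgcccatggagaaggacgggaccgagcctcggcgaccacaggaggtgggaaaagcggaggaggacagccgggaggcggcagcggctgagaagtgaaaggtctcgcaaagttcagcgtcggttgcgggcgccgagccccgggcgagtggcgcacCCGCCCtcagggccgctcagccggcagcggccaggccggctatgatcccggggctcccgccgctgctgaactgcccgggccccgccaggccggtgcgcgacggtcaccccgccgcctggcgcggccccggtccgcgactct
Epha3: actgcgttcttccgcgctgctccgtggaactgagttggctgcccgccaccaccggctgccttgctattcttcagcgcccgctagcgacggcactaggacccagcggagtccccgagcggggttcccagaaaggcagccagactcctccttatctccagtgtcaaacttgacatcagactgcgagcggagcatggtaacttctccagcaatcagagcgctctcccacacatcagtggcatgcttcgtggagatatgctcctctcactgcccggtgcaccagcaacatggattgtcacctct
The motifs were TATAAA (the TATA box, in 14.2% of 33469 promoters of this length), GGGCGG (the GC box, in 33.1%), TGACGTCA (the cAMP response element, in 1.83%) and CACGTG (an E-box, in 6.42%), and no match overlaps another in these windows. The Ntn4 window held 1 GC box, read on the other strand, 38 CpG pairs and 74.0% G or C. The Epha3 window held none of these letters, 18 CpG pairs and 59.3% G or C, where the median of all promoters was 51.7%. Of the 61 members, 48 had a promoter in the table by symbol.

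Among the ligands, the netrin Ntn4 (ENSRNOG00000005573), a secreted protein that binds laminins, had the largest difference. Its level ran from 2.44 to 6.21 CPM with a median of 3.65 CPM in D1 libraries, against 0.503 to 2.69 CPM with a median of 1.43 CPM in A2a libraries. All but 1 of the D1 libraries lay above every A2a library, and the types did not overlap among saline animals or among cocaine animals at day 40. The log2 difference was 1.34 ± 0.13 (SE, edgeR adjusted p = 1.98e-12). The other netrins did not pass the edgeR test, with 0.32 for Ntn3 (adjusted p = 0.0992) and -0.30 for Ntn1, the classical ligand of Dcc (adjusted p = 0.142).

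The secreted semaphorin Sema3c, which acts through neuropilins and plexins, was the second ligand with a large difference. It ran from 9.15 to 35.4 CPM with a median of 14.8 CPM in D1 libraries, against 5.25 to 14.5 CPM with a median of 7.34 CPM in A2a libraries. Of the 24 A2a libraries, 21 lay below every D1 library. The log2 difference was 1.00 ± 0.11 (SE, edgeR adjusted p = 4.86e-10). Sema3g, another secreted member that binds Nrp2, was more scattered, with 3.71 to 26.8 CPM and a median of 7.22 CPM in D1 libraries, against 2.20 to 10.9 CPM and a median of 5.50 CPM in A2a libraries. The ranges overlapped widely, and the highest values were D1 libraries. Its difference was 0.68 ± 0.20 (SE, edgeR adjusted p = 0.00819). The other 4 secreted members, Sema3b, Sema3d, Sema3e and Sema3f, did not pass and lay between -0.07 and 0.20.

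Of the 13 membrane semaphorins, 7 were higher in D1 and 1 was lower. Sema6c ran from 9.46 to 26.2 CPM with a median of 15.7 CPM in D1 libraries and from 7.57 to 17.9 CPM with a median of 11.5 CPM in A2a libraries (0.41 ± 0.09, edgeR adjusted p = 0.000381). Sema4g ran from 23.0 to 36.7 CPM with a median of 30.0 CPM in D1 libraries and from 17.2 to 29.3 CPM with a median of 23.6 CPM in A2a libraries (0.36 ± 0.05, edgeR adjusted p = 1.89e-07). Both genes overlapped between the types, with D1 libraries at the top and A2a libraries at the bottom of the range. Sema6d, a ligand of A-type plexins, differed by 0.25 ± 0.04 (edgeR adjusted p = 2.24e-06), and Sema5a, Sema4b, Sema4f and Sema4a by 0.12 to 0.28. The exception was Sema7a, a lipid-anchored semaphorin read by Plxnc1 and integrins, which was lower in D1 by a log2 difference of -0.25 ± 0.06 (edgeR adjusted p = 0.00217). Sema4c, Sema4d, Sema5b, Sema6a and Sema6b did not pass. Sema6b, with the most counts of the semaphorins, had 195.4 to 273.7 CPM in D1 libraries and 168.9 to 348.5 CPM in A2a libraries, and the D1 range lay inside that of A2a.

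The Slits differed among themselves. Slit1 ran from 18.2 to 31.0 CPM with a median of 24.9 CPM in D1 libraries, against 9.65 to 21.5 CPM with a median of 16.1 CPM in A2a libraries. The types did not overlap among saline animals or among cocaine animals at day 40, and the log2 difference was 0.54 ± 0.07 (SE, edgeR adjusted p = 9.46e-09). Slit3 was the reverse, with 25.6 to 67.9 CPM and a median of 40.0 CPM in D1 libraries, against 37.7 to 86.2 CPM and a median of 47.5 CPM in A2a libraries. The types overlapped over much of this range, and the difference was -0.36 ± 0.08 (SE, edgeR adjusted p = 0.000773). Slit2 did not pass (0.10, edgeR adjusted p = 0.377).

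Ephrins are membrane-bound ligands, and 2 of the 5 differed. Efnb1 ran from 17.0 to 33.4 CPM with a median of 26.5 CPM in D1 libraries, against 25.0 to 45.8 CPM with a median of 33.9 CPM in A2a libraries, with overlap in the middle of the range (-0.41 ± 0.07, edgeR adjusted p = 1.59e-06). Efna1 was higher in D1 (0.27, edgeR adjusted p = 0.0305), though not when the 2 libraries that stood apart were left out. Efnb3, which had the most counts in this family, had a median of 355.4 CPM in D1 libraries and 360.8 CPM in A2a libraries, the A2a range lying inside that of D1 (-0.02, edgeR adjusted p = 0.731). Efna2 and Efna3 did not pass either. Of the lipid-anchored netrin-Gs, Ntng1 was lower in D1, with 11.7 to 18.7 CPM and a median of 14.9 CPM in D1 libraries, against 11.4 to 32.1 CPM and a median of 17.2 CPM in A2a libraries (-0.25 ± 0.07, edgeR adjusted p = 0.00675), with overlapping ranges, and Ntng2 did not pass.

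Of the 12 Eph receptors, 3 were higher and 3 were lower in D1, and the split followed the receptor class. Ephb1, Ephb2 and Ephb3 were higher, whereas Epha3, Epha4 and Epha6 were lower. Ephb2, a B-class receptor that associates with NMDA receptors at synapses, ran from 3.03 to 14.1 CPM with a median of 5.45 CPM in D1 libraries, against 1.60 to 4.58 CPM with a median of 3.04 CPM in A2a libraries. Of the 24 D1 libraries, 17 lay above every A2a library, and the log2 difference was 1.04 ± 0.13 (SE, edgeR adjusted p = 5.15e-09). Ephb1 ran from 69.1 to 97.4 CPM in D1 libraries and from 51.8 to 84.0 CPM in A2a libraries (0.32 ± 0.04, edgeR adjusted p = 3.87e-08), and Ephb3 differed by 0.26 (edgeR adjusted p = 0.0399).

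Epha3 (ENSRNOG00000030285), an A-class receptor, had the largest difference toward A2a. Its level ran from 3.80 to 8.34 CPM with a median of 5.93 CPM in D1 libraries, against 6.66 to 15.8 CPM with a median of 9.99 CPM in A2a libraries. The types did not overlap among saline animals or among cocaine animals at day 1, and the log2 difference was -0.79 ± 0.08 (SE, edgeR adjusted p = 1.11e-10). Epha4, a receptor that binds ephrins of both classes, ran from 119.9 to 198.6 CPM with a median of 168.1 CPM in D1 libraries, against 171.6 to 257.8 CPM with a median of 197.7 CPM in A2a libraries (-0.29 ± 0.05, edgeR adjusted p = 5.5e-06). Epha6 ran from 6.96 to 13.8 CPM with a median of 9.54 CPM in D1 libraries, against 8.69 to 29.9 CPM with a median of 12.0 CPM in A2a libraries (-0.45 ± 0.09, edgeR adjusted p = 5.52e-05). For Epha4 and Epha6 the ranges overlapped, with D1 libraries at the bottom. Epha5, Epha7, Epha8, Epha10, Ephb4 and Ephb6 did not pass in the average over treatments.

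**Figure D2:**
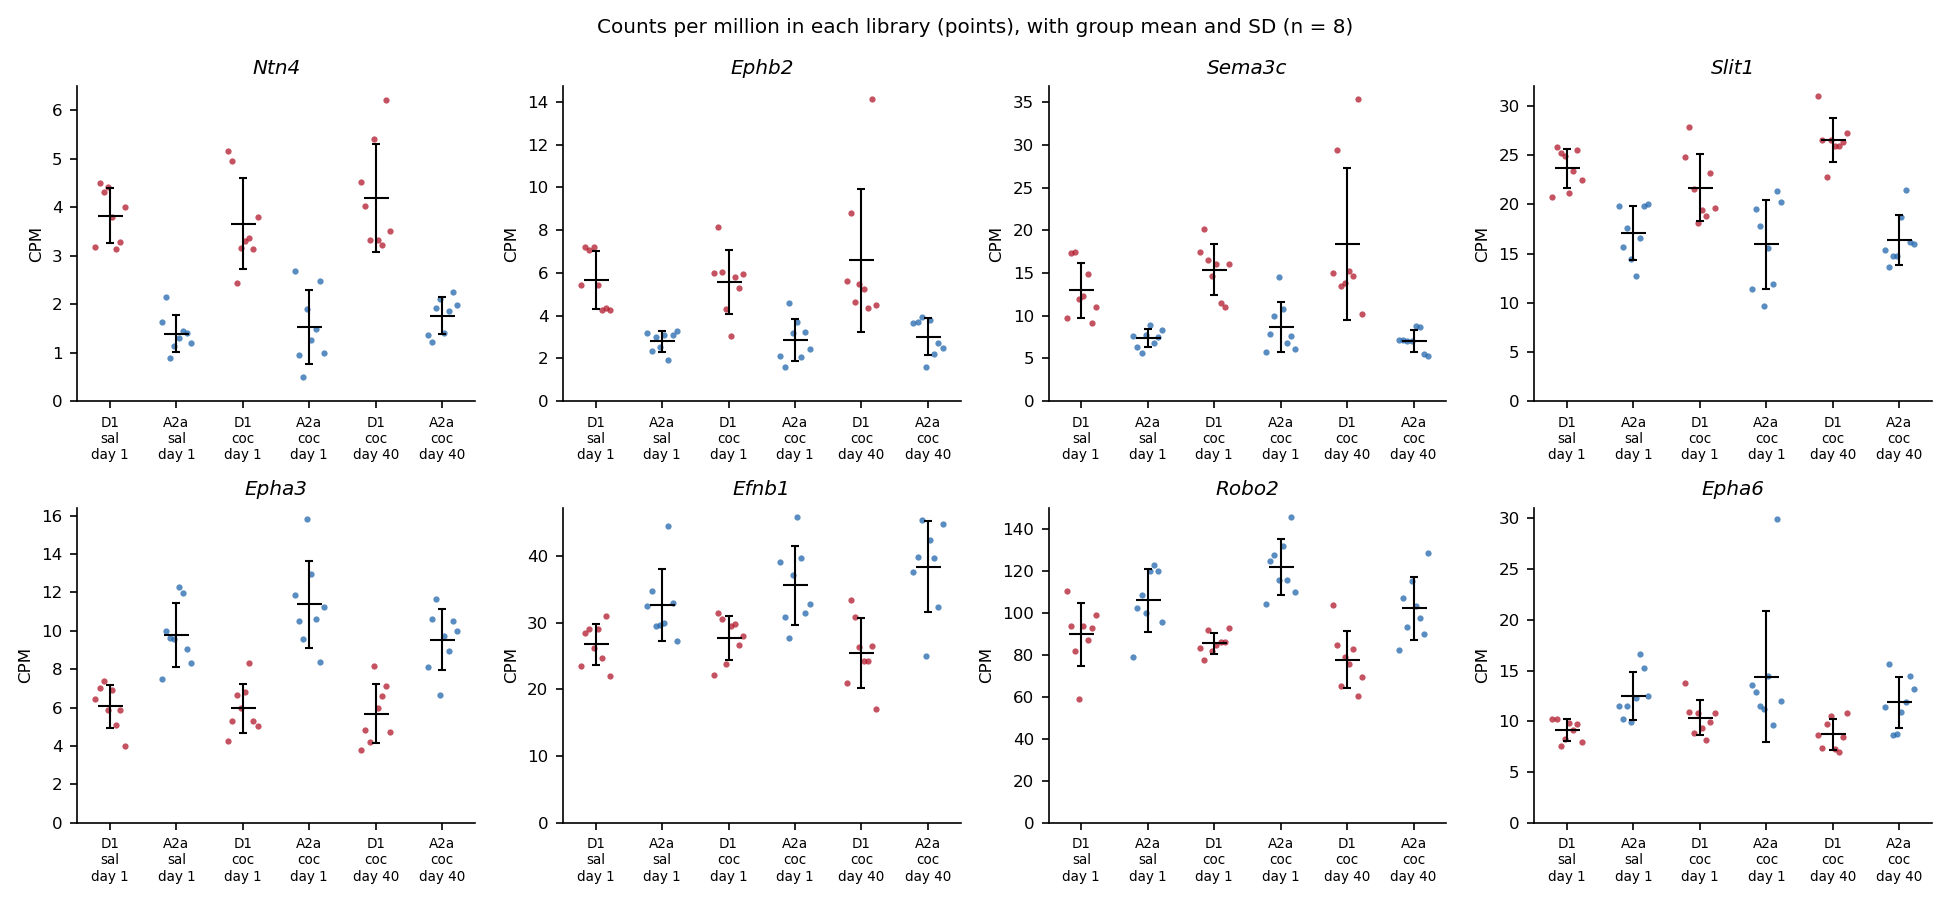
Level in CPM of 8 guidance genes in each library (points), with D1 libraries in red left of A2a libraries in blue within each treatment group, and the mean and SD of each group of 8 in black. Ntn4 and Slit1 separate the types in saline animals and in cocaine animals at day 40, and the mean of Epha3 is lower in D1 libraries in each of the 3 treatment groups.

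Receptors of the other cues were mostly lower in D1 where they differed. Robo2, a Slit receptor, ran from 58.9 to 110.6 CPM with a median of 84.7 CPM in D1 libraries, against 78.7 to 145.8 CPM with a median of 109.1 CPM in A2a libraries. The types did not overlap among cocaine animals at day 1, and the difference over all was -0.38 ± 0.06 (SE, edgeR adjusted p = 4.61e-07), whereas Robo1 did not pass (-0.18, edgeR adjusted p = 0.283). Unc5c, which mediates repulsion by netrin, ran from 9.93 to 19.0 CPM with a median of 12.5 CPM in D1 libraries, against 12.4 to 20.8 CPM with a median of 15.4 CPM in A2a libraries (-0.32 ± 0.06, edgeR adjusted p = 8.21e-05). Its ranges overlapped widely. Unc5a and Unc5b did not pass, Unc5a having a median of 21.8 CPM in D1 libraries and 23.4 CPM in A2a libraries.

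Among the semaphorin receptors, the co-receptor Nrp2 was higher in D1, with 2.20 to 18.3 CPM and a median of 6.73 CPM in D1 libraries, against 1.84 to 7.23 CPM and a median of 3.50 CPM in A2a libraries. The low libraries of both types overlapped, and the difference was 0.78 ± 0.17 (SE, edgeR adjusted p = 0.00036). Nrp1 did not pass, with a median of 12.4 CPM in D1 libraries and 11.9 CPM in A2a libraries. Of the 9 plexins, Plxna3 was higher in D1 (0.21, edgeR adjusted p = 0.0353), and Plxnd1, a receptor of Sema3e, was lower (-0.27 ± 0.06, edgeR adjusted p = 0.00012). Plxna2, a receptor of class 6 semaphorins and the plexin with the most counts, had a median of 192.1 CPM in D1 libraries and 195.2 CPM in A2a libraries and did not pass. Plxna1, Plxnb1, Plxnb2, Plxnb3 and Plxnc1 did not pass either.

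The call of Plxna4 rested on 1 library, which also moved the value of Dcc. Plxna4, a plexin for class 3 and class 6 semaphorins, ran from 0.712 to 2.70 CPM with a median of 1.47 CPM in D1 libraries, against 1.02 to 47.7 CPM with a median of 1.74 CPM in A2a libraries. The value of 47.7 CPM came from A2a cocaine day 1 replicate 7, the library of 5.3 M counts, and the next highest of its group had 2.51 CPM. The difference of -0.73 ± 0.28 (SE, edgeR adjusted p = 0.0439) became -0.09 without that library (edgeR adjusted p = 0.644). Dcc, the netrin receptor that mediates attraction, had a median of 3.20 CPM in D1 libraries and 3.77 CPM in A2a libraries, and the same library held 27.3 CPM. Its difference of -0.46 ± 0.16 (edgeR adjusted p = 0.0227) became -0.23 without it (edgeR adjusted p = 0.0538) and -0.24 without both libraries that stood apart, where it passed narrowly (edgeR adjusted p = 0.0495).

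Each treatment group gave its own measure of the neuron types, since the 3 groups share no library. In saline animals 12 of 61 members (19.7%) differed in the edgeR test, 8 higher and 4 lower in D1, beside 8.13% of all genes (4.12% higher, 4.01% lower). Among cocaine animals at day 1 it was 19 (31.1%), 10 higher and 9 lower, beside 11.1% of all genes (5.53% higher, 5.56% lower). Among cocaine animals at day 40 it was 18 (29.5%), 10 higher and 8 lower, beside 20.4% of all genes (10.1% higher, 10.3% lower). All 12 members called in saline animals had the same sign in both cocaine groups, and 10 were called in each of the 3 groups. These were Ntn4, Sema3c, Sema4g, Sema6d, Slit1, Ephb1 and Ephb2, higher in D1, and Epha3, Epha4 and Epha6, lower in D1. Of the 19 called in cocaine day 1 animals, 17 had the same sign in saline animals and 11 were called there. Of the 18 called in cocaine day 40 animals, 17 had the same sign in saline animals and 11 were called there. The share of all genes that repeat in this way was not counted, so the repeats are not read as particular to guidance genes. Without the 2 libraries that stood apart, cocaine day 1 animals gave 15 calls, losing Slit3, Epha6, Dcc and Plxna4, and cocaine day 40 animals gave 17, losing Epha4, Sema6c and Nrp2 and gaining Sema4f and Dcc. Epha6 and Epha4 were then called in fewer of the groups. The log2 difference of Ntn4 was 1.45 ± 0.22, 1.31 ± 0.22 and 1.25 ± 0.21 in saline day 1, cocaine day 1 and cocaine day 40 animals, and that of Epha3 was -0.69 ± 0.15, -0.94 ± 0.15 and -0.74 ± 0.15. No member passed the edgeR test that the neuron type difference was unequal over the 3 groups (0 of 61, beside 0.276% of all genes). DESeq2 and limma-voom called 0 as well, and 3 members had an unadjusted edgeR p under 0.05, beside 1354 of the 15580 genes tested. The smallest p was that of Plxnd1 (edgeR adjusted p = 0.188), followed by Epha7 (edgeR adjusted p = 0.445).

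**Figure D3:**
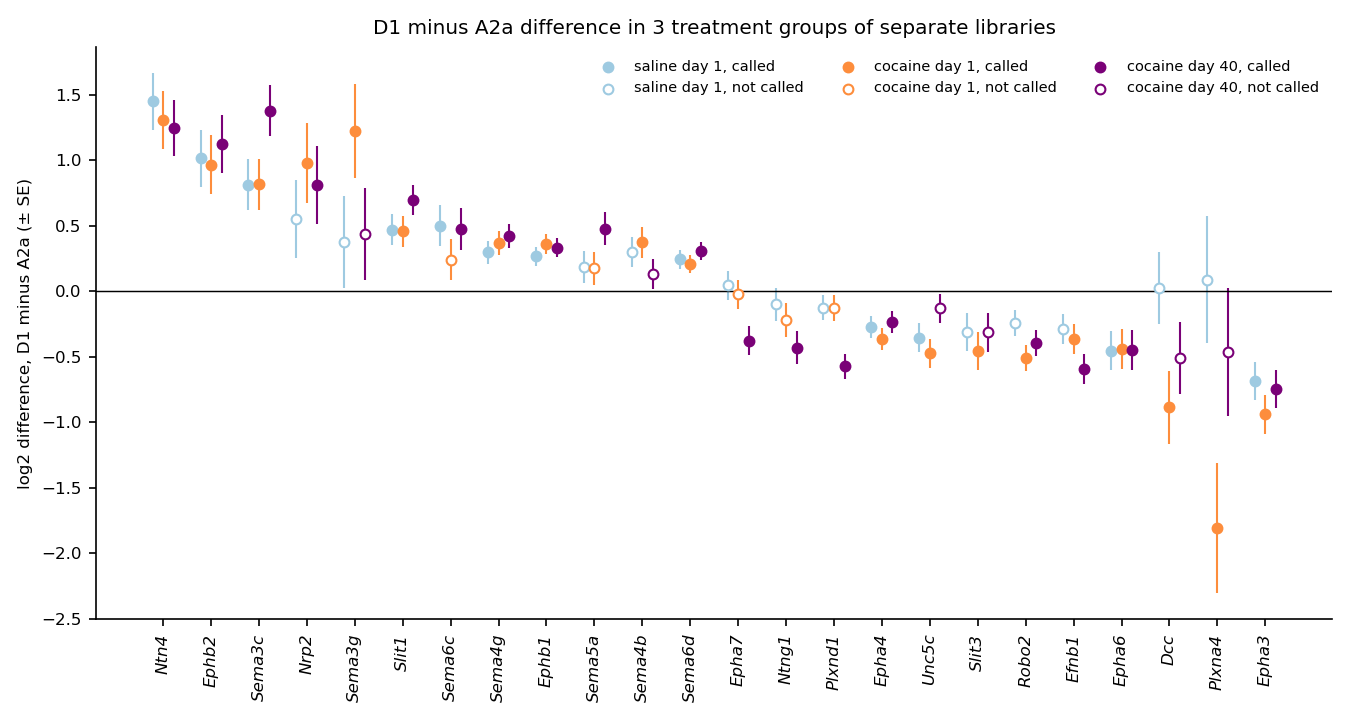
Log2 difference between D1 and A2a libraries (D1 minus A2a, with standard errors, 8 libraries a group) of the 24 guidance genes called in at least 1 of the saline day 1, cocaine day 1 and cocaine day 40 groups, with filled points where a gene was called. Ntn4 stays between 1.25 and 1.45 and Epha3 between -0.94 and -0.69, while Plxna4 reaches -1.81 in the group that holds the library of 5.3 M counts.

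A number in the sample descriptions, whose meaning is not given, was 85 in all D1 libraries of day 40 and 88 in all A2a libraries of day 40, so it cannot be told apart from neuron type at day 40 or from day within a type. The day 1 libraries carried 89, 91 or 92 in both types. These 3 sets held 6, 4 and 6 D1 libraries and 9, 4 and 3 A2a libraries, with saline and cocaine animals pooled. The set of 92 includes the A2a library of 5.3 M counts. Within these 3 sets the mean log2 difference was 1.41, 1.39 and 1.36 for Ntn4 and -0.81, -0.79 and -0.74 for Epha3. Ephb2 gave 1.21, 0.61 and 0.91, Sema3c 1.03, 0.64 and 0.77, Slit1 0.50, 0.63 and 0.19, and Robo2 -0.34, -0.33 and -0.46. Among the called members compared in this way, 3 did not keep their sign, Sema3g with 1.10, -0.17 and 0.52, Sema7a with -0.15, 0.01 and -0.49, and Plxna4 with 0.20, 0.34 and -1.81.

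Cocaine at day 1 moved no guidance gene past the threshold in either neuron type. In D1 neurons, 0 of 61 members differed between cocaine and saline in the edgeR test, beside 0% of all genes. Only 1 had an unadjusted edgeR p under 0.05, beside 363 of the 15580 genes tested. The smallest p was that of Sema7a, with 19.0 to 35.0 CPM and a median of 27.4 CPM in cocaine animals, against 17.8 to 29.2 CPM and a median of 22.9 CPM in saline animals. The ranges overlapped in the middle, and the log2 difference was 0.23 ± 0.11 (edgeR adjusted p = 1). Sema3g came next, with 5.76 to 21.5 CPM and a median of 12.6 CPM in cocaine animals, against 3.71 to 15.2 CPM and a median of 6.73 CPM in saline animals (0.67 ± 0.35, edgeR adjusted p = 1). In A2a neurons, 0 of 61 members differed, beside 0.0706% of all genes. An unadjusted edgeR p under 0.05 was held by 6 members, beside 932 of the 15580 genes tested. DESeq2 and limma-voom called 0 members in both types. The smallest p in A2a neurons were those of Plxna4 (2.07 ± 0.50, edgeR adjusted p = 0.156) and Dcc (0.87 ± 0.28, edgeR adjusted p = 0.457), both raised by the library of 5.3 M counts. Without it they were 0.17 and 0.19 (edgeR adjusted p = 0.998 each).

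Between day 40 and the day 1 groups, 3 receptors passed in D1 neurons, Plxnd1, Ephb6 and Epha7, at shares near those of all genes. No member passed the edgeR test that the change from cocaine day 1 differed between the neuron types. Ephb6 rose by 0.37 on the log2 scale from cocaine day 1 in both types, though only the change in D1 neurons passed. In D1 neurons, 2 of 61 members (3.28%) differed between cocaine day 40 and cocaine day 1 in the edgeR test, 1 higher and 1 lower, beside 1.85% of all genes (0.7% higher, 1.16% lower). Between cocaine day 40 and saline day 1 it was 2 (3.28%), both lower, beside 2.61% of all genes (1.07% higher, 1.53% lower). These 2 comparisons share the day 40 libraries. In A2a neurons, 0 of 61 differed in either comparison, beside 0.263% and 0% of all genes, and DESeq2 and limma-voom called 0. An unadjusted edgeR p under 0.05 was held by 7 and 6 members, beside 1641 and 838 of the 15580 genes tested.

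Plxnd1 (ENSRNOG00000025209), the plexin that in mice acts with Sema3e at thalamic synapses onto striatal neurons, fell in D1 neurons at day 40. Its level in D1 libraries was 52.5 to 67.8 CPM with a median of 62.6 CPM in saline day 1 animals, 48.4 to 69.5 CPM with a median of 54.5 CPM in cocaine day 1 animals, and 29.0 to 60.7 CPM with a median of 46.4 CPM in cocaine day 40 animals. Of the 8 day 40 libraries, 5 lay below every cocaine day 1 library and 6 below every saline library. The log2 difference was -0.36 ± 0.10 against cocaine day 1 (edgeR adjusted p = 0.042) and -0.41 ± 0.10 against saline (edgeR adjusted p = 0.0142). In A2a libraries it averaged 66.3 ± 5.22 CPM in saline day 1, 64.6 ± 9.19 CPM in cocaine day 1 and 68.3 ± 7.27 CPM in cocaine day 40 animals (SD, n = 8 each). The day 40 change in D1 minus that in A2a was -0.45 ± 0.14 and did not pass (edgeR adjusted p = 0.173). No member passed this edgeR test of unequal change (0 of 61, beside 0.0642% of all genes), nor with DESeq2 or limma-voom. An unadjusted edgeR p under 0.05 was held by 5 members, beside 1632 of the 15580 genes tested. Within day 40 animals Plxnd1 was lower in D1 than in A2a by -0.57 ± 0.10 (edgeR adjusted p = 3.92e-07), with 7 of 8 D1 libraries below every A2a library, against -0.12 ± 0.10 in saline animals (edgeR adjusted p = 0.54). Of 10 microglial markers, 7 were also lower in D1 in the day 40 animals (median log2 difference -0.83), with sums of 169.0 to 292.2 CPM in D1 libraries and 254.0 to 577.4 CPM in A2a libraries. Without D1 cocaine day 40 replicate 7, the day 40 difference against cocaine day 1 was -0.28 and no longer passed.

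Ephb6, an Eph receptor that lacks kinase activity, was higher at day 40 than in cocaine day 1 animals. In D1 libraries it ran from 29.4 to 38.7 CPM with a median of 31.9 CPM in saline day 1, from 23.4 to 41.7 CPM with a median of 28.6 CPM in cocaine day 1 and from 29.5 to 45.0 CPM with a median of 38.0 CPM in cocaine day 40 animals. In A2a libraries it ran from 22.4 to 36.6 CPM with a median of 33.0 CPM, from 25.0 to 32.4 CPM with a median of 28.4 CPM and from 32.5 to 41.8 CPM with a median of 36.3 CPM in the same order. Day 40 and cocaine day 1 libraries overlapped in D1, where 3 of 8 day 40 libraries lay above every day 1 library, and did not overlap in A2a. Against cocaine day 1 the difference was 0.37 ± 0.10 in D1 (edgeR adjusted p = 0.0361) and 0.37 ± 0.10 in A2a (edgeR adjusted p = 0.0849), from separate libraries. The difference between these changes was -0.005 ± 0.14 on the log2 scale (edgeR adjusted p = 0.997). Against saline day 1, Ephb6 did not pass in D1 (0.25, edgeR adjusted p = 0.166) or A2a (0.23, edgeR adjusted p = 0.866).

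Epha7, an A-class receptor, was lower in D1 neurons at day 40. Its level in D1 libraries was 26.2 to 49.9 CPM with a median of 42.4 CPM in saline day 1, 31.2 to 49.5 CPM with a median of 39.6 CPM in cocaine day 1 and 19.7 to 37.6 CPM with a median of 32.4 CPM in cocaine day 40 animals. The day 40 libraries lay at the low end, although the ranges overlapped. The difference was -0.39 ± 0.11 against saline (edgeR adjusted p = 0.0424) and -0.36 ± 0.11 against cocaine day 1 (edgeR adjusted p = 0.0731). In A2a libraries the same differences were 0.03 ± 0.11 and -0.01 ± 0.11, with edgeR adjusted p = 0.999 and 0.992. The day 40 change against cocaine day 1 in D1 minus that in A2a was -0.36 ± 0.16 (edgeR adjusted p = 0.394). The calls of Plxnd1, Ephb6 and Epha7 lay near the threshold, and fits to only the 2 groups compared called 0 members in both day 40 comparisons of D1 neurons.

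**Figure D4:**
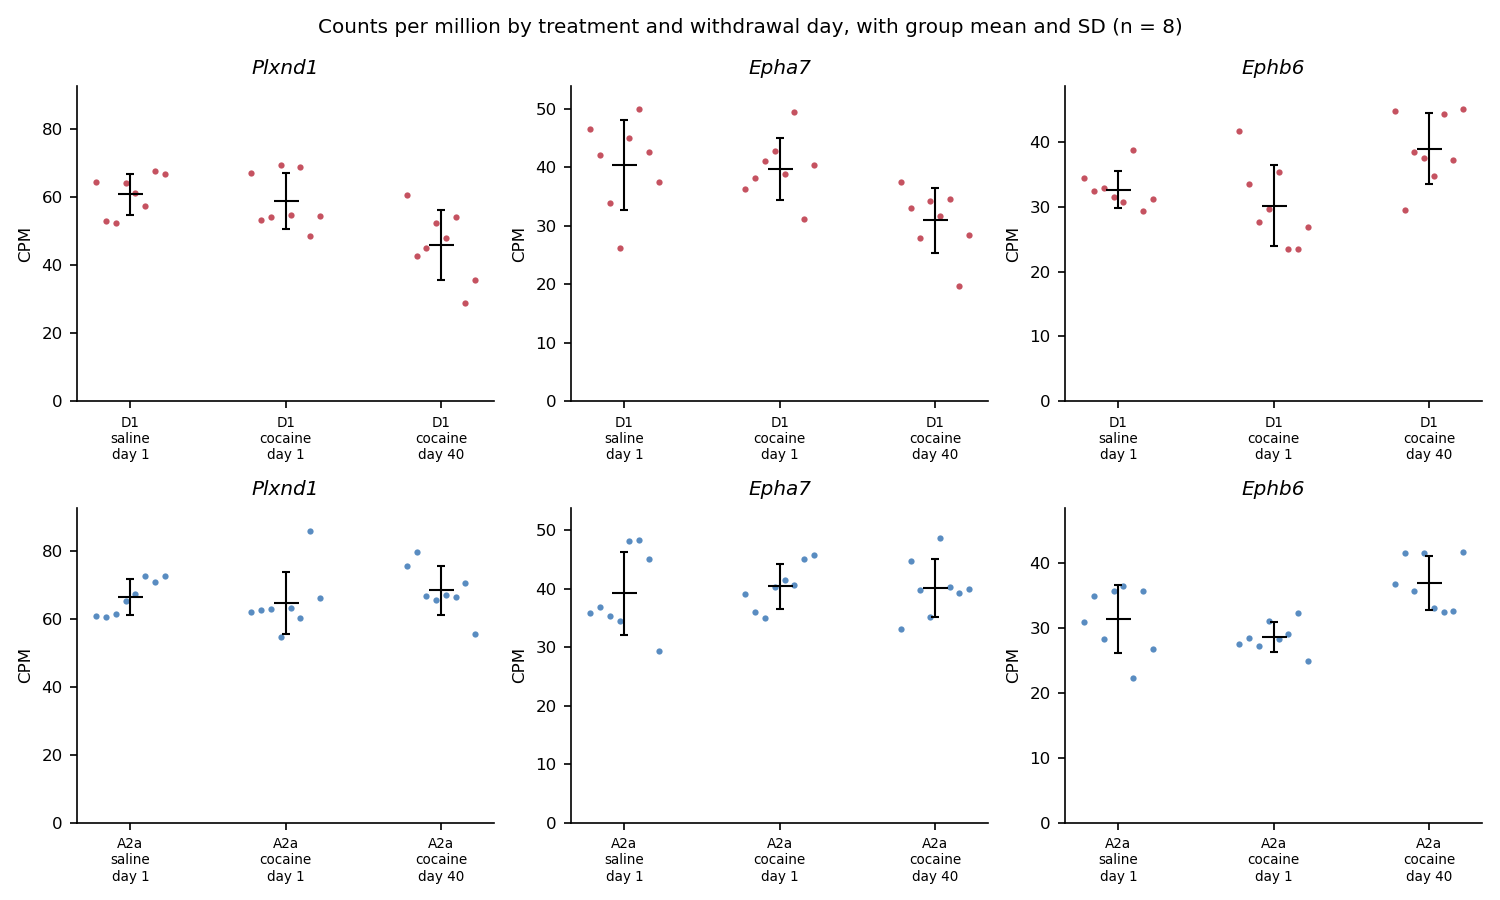
Level in CPM of Plxnd1, Epha7 and Ephb6 in each library (points) of saline day 1, cocaine day 1 and cocaine day 40 animals, with the mean and SD of each group of 8, D1 libraries in the upper panels and A2a libraries in the lower panels. Plxnd1 averages 45.9 CPM in D1 libraries at day 40, below the other 5 groups at 58.8 to 68.3 CPM, and Ephb6 averages 39.0 CPM in D1 libraries of day 40 and 37.0 CPM in the A2a libraries of that day.

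Microglial markers were also lower in the D1 libraries of day 40. Of 10 tested, 2 were lower than in cocaine day 1 animals (C1qa by -1.11 and Itgam by -1.38 on the log2 scale) and 3 were lower than in saline animals. Their sum was 229.0 to 616.3 CPM in saline day 1, 168.1 to 556.1 CPM in cocaine day 1 and 169.0 to 292.2 CPM in cocaine day 40 animals, and no marker was at 0. No endothelial or mural marker passed, but all 9 tested lay below 0 against cocaine day 1 (median -0.23) and 8 did against saline (median -0.27). Their sum was 36.2 to 91.6 CPM in saline day 1, 41.5 to 81.5 CPM in cocaine day 1 and 35.4 to 62.5 CPM in cocaine day 40 animals. The part of microglial, endothelial or mural RNA in the day 40 values was not tested.

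Of the other members named for their small p, Sema3d did not pass in A2a neurons between cocaine day 40 and saline day 1 (0.68 ± 0.26, edgeR adjusted p = 0.815). It had 0.692 to 1.87 CPM with a median of 1.31 CPM in cocaine day 40 animals, against 0.507 to 1.38 CPM with a median of 0.717 CPM in saline animals. Plxna4 between cocaine day 40 and cocaine day 1 in A2a neurons (-1.96 ± 0.50, edgeR adjusted p = 0.0733) again rested on the library of 5.3 M counts and was -0.06 without it.

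Some of the genes that work with these cues also differed between the types. Of 21 tested cofactors and co-receptors, 6 were higher and 6 lower in D1. Beside this, 31.6% of all genes differed (15.2% higher, 16.5% lower), and 35.6% of genes with a mean of at least 1 CPM. The median was -0.006 for the list and -0.005 for all genes. The adhesion receptor Dscam (1.05), the glypican Gpc1 (0.34), Mdga1 (0.74), the repulsive guidance molecule Rgma (0.31) and the contactin Cntn2 (0.25) were higher, and Lrrc4c, the postsynaptic partner of Ntng1 (-0.30), Lrrc4 (-0.17), Flrt3 (-0.19), Dag1 (-0.11) and Dscaml1 (-0.26) were lower. Of 47 tested genes for signalling inside the cell, 9 were higher and 11 lower, with a median of -0.045. The shares beside it are the same 31.6% of all genes and 35.6% of genes with a mean of at least 1 CPM. These 47 are gene identifiers of 46 names, since Mical2 has 2. Higher were Farp1, a plexin effector (0.63), the collapsin response mediator genes Crmp1 (0.26) and Dpysl3 (0.57), the kinase Limk1 (0.42) and Rnd1 (0.27). Lower were Ngef, which acts downstream of EphA receptors (-0.51), the identifier of Mical2 with 87.5 CPM (-0.52, the other and far less counted one not passing at 0.29), the kinase Rock2 (-0.29), the chimaerin Chn1 (-0.28) and Plxdc2, a membrane protein (-0.63). Between day 40 and the day 1 groups, 0 of the signalling genes passed in D1 neurons, and among the cofactors only Gpc1 did in A2a neurons against cocaine day 1 (0.22 ± 0.05, edgeR adjusted p = 0.0188).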

How the data were processed

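Ribosome-bound RNA was measured in 48 libraries, 6 groups of 8. The submitters' processing notes name STAR, SAMtools, Trimmomatic and bcl2fastq and the build Rnor_6.0. Not given in the sources used here are the versions, the counting program, the annotation and the strand setting. Overlapping genes and antisense pairs therefore cannot be told apart. The deposited table held raw read counts per gene, made by the authors, with gene names. The replicates were taken as separate animals, since the labels speak of 48 brains, and no pair among 168 within groups was a duplicate (0 identical, lowest chi-square per gene 9.7).

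Counts were tested with edgeR 4.0.16 in R 4.3.3, with its filter at a minimum count of 10, scaling by trimmed means of M values and 1 quasi-likelihood fit with 1 term per group over all 48 libraries. Adjusted p-values are Benjamini-Hochberg over all 15580 genes, at 0.05. Each standard error is the absolute log2 difference over the root of its F statistic. CPM values use the scaled totals, are not corrected for gene length, and cannot be compared between genes. Alternatives used limma 3.58.1 and DESeq2 1.42.0. The fits were tested on simulated counts. Members, marker lists and pathway lists were chosen with earlier results of these data known.

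Genes named with their values were the up to 8 called members with the largest difference each way between the types, every member called in a treatment comparison or, where none was, the 2 with the smallest p, and the member of each family with the most counts. From the pathway lists, up to 5 called genes of smallest p each way were named. Other members given with a difference were added for completeness after their values were seen.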

Additional observations from a re-analysis of the deposited data

Results flagged for a closer look

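Single libraries that stood far from the other 7 of their group were looked for in 174 sets of 8 libraries, and 13 were found. The sets were those of the genes named by the rule above, not of all 61 members. Chance alone would give such a gap in about 5% of sets of genes not picked from the same libraries. The named genes were picked partly by their values here, so the 13 cannot be set against that rate. Of the 13, 7 belonged to A2a cocaine day 1 replicate 7, the library of 5.3 M counts. It had the highest level of its group for Plxna4 (47.66 CPM, the next 2.507), Dcc (27.26, next 5.366), Epha6 (29.93, next 14.49), Slit3 (86.17, next 60.06), Plxnd1 (85.78, next 66.03), Plxna2 (303.5, next 213.4) and Ntn1 (20.4, next 6.583). D1 cocaine day 40 replicate 7 was highest for Ephb2 (14.11 CPM, next 8.818), Nrp2 (18.32, next 7.574) and Sema6c (26.21, next 16.81). D1 cocaine day 40 replicate 1 was highest for Sema3g (26.8 CPM, next 14.02), A2a saline replicate 6 was highest for Efnb1 (44.54 CPM, next 34.75), and D1 saline replicate 4 was lowest for Efnb3 (292.4 CPM, next 343.4). The causes of these gaps were not tested.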

How the results depend on the processing

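The counts of members that differed between D1 and A2a stayed within 1.5 times under every alternative that kept all libraries. Averaged over treatments, the 29 became 29 with DESeq2 size factors, 28 with DESeq2, 28 with limma-voom, 27 without the low-count filter and 26 to 29 when each library was left out. With a replicate block they became 27, and the block gave 2 in each D1 day 40 comparison. The labels do not say that replicate numbers pair animals. Deviations of same-numbered libraries of different groups had a mean correlation of 0.045 (-0.183 to 0.315), with 28 of 120 pairs over 0.1, and those of different numbers -0.006 (-0.293 to 0.322), with 89 of 840 over 0.1. Not every library was closest to its own number, but 18 of 48 were. Pairs over 0.1 were a larger share among same-numbered libraries, so libraries of the same number shared some structure. The count expected by chance was not worked out. Since the labels give no pairing, the replicate numbers were not used to pair the samples in the results. Structure shared by replicate number is therefore not modelled there, and only the counts with the replicate block take it up. The first number of the sample descriptions also runs across the groups. Its meaning is not given, and no fit used it. In saline animals the 12 became 7 to 12 when a library was left out, with 7 without D1 replicate 3 or A2a replicate 6. The ranges were 14 to 19 in cocaine day 1 and 14 to 21 in cocaine day 40 animals. With the middle number of the description as a term, day 1 animals gave 9 for saline and 16 for cocaine. In the D1 comparison of cocaine day 40 with day 1, the count of 2 became 1 without the filter, 0 with only the groups compared, and 0 to 2 when 1 library was left out, falling without day 40 replicates 2 to 8 or day 1 replicates 1, 3, 4, 6, 7 or 8. Against saline, the 2 became 1 without the filter, 1 with limma-voom, 0 with only the groups compared, and 1 to 2 when 1 library was left out, falling without day 40 replicates 2, 3, 4, 5, 7 or 8 or saline replicates 1, 2, 5, 6, 7 or 8. Plxnd1 against saline passed under each omission (edgeR adjusted p = 0.00402 to 0.0396). In A2a animals the 0 became 0 to 1 for cocaine against saline (1 without cocaine replicate 6) and for day 40 against day 1 (1 without day 1 replicate 2, 4, 5, 6 or 8), in each case Plxna4. Leaving out both libraries that stand apart (A2a cocaine day 1 replicate 7 and D1 cocaine day 40 replicate 7), chosen after seeing the data, gave 28 for the types, of which 27 were shared, with Efna1 and Plxna4 lost and Plxnc1 gained. The D1 day 40 comparisons then gave 1 each, Ephb6 against day 1 and Plxnd1 against saline. The difference of Plxna2, which did not pass either way, changed sign there to 0.014 (-0.04 with all libraries). Plxna4 was also lost with DESeq2 (-0.09), limma-voom (-0.15), no filter and the block (-0.39), and Dcc with limma-voom (-0.25). A fit to only the groups compared could not be set apart from the fit used for the average over treatments and for the test of unequal differences, so none was added. The causes of these changes were not tested. Members near 1 CPM rested on few counts in the shallowest library.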
